A study of Mus musculus with 4 samples.

Results

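Hematopoietic progenitors without strong lineage markers were caught with abundant S-phase histone transcripts and few mitotic transcripts. They are called histone-high cells here. Cells with at least 500 detected genes and at most 10% mitochondrial UMIs (unique molecular identifiers, each standing for 1 captured transcript) were kept first. A kept cell was then taken when Hist1h1a, Hist1h1b, Hist1h3b and Hist1h2ap summed to at least 20 UMIs while Ube2c, Cenpf, Hmmr, Aspm, Ccnb1 and Cenpa summed to at most 5. Lineage gates removed cells with any Procr or Igll1, more than 1 UMI of Pf4 or Klf1, more than 2 of Elane or of Camp plus Ngp, or more than 5 of H2-Aa. The rule left 1183 of 41122 kept cells, drawn from 44151 barcodes. The cells were thus chosen by measured UMIs of these 4 histone, 6 mitotic and several lineage genes, and the sets they are compared with were cut from the same counts. Every difference below is therefore a description, and no test was made.

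The cells came from a competitive transplantation, in which donor and competitor marrow rebuild blood in 1 recipient. Donor hematopoietic stem and progenitor cells (HSPCs) carrying the CD45.2 form of CD45 were isolated from bone marrow of C57BL/6 mice 20 weeks after transplantation. There were 2 samples with Srcap heterozygous mutant donor cells and 2 with wild-type donor cells, each from 20000 isolated HSPCs. The labels do not give the change in the Srcap allele or the number of mice behind a sample. Barcodes carry 4 suffixes, called libraries 1 to 4, and no label ties a suffix to a genotype. Mutant and wild-type cells therefore cannot be told apart, and values are given per library.

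Replication-dependent histone genes lie in clusters and are switched on when DNA synthesis begins, so that new DNA can be packed into nucleosomes. Core histones H2A, H2B, H3 and H4 form the nucleosome, and H1 binds the linker DNA between nucleosomes. Their messenger RNAs normally end in a short stem-loop, bound by the protein Slbp, instead of a poly(A) tail, and they are destroyed when replication stops. Capture by poly(T), as in this assay, therefore recovers only a part of these transcripts. In marrow, multipotent progenitors divide often, whereas long-term stem cells are mostly quiescent.

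Promoters of 4 histone classes are shown because the genes behind them were high together in the histone-high cells. They come from RefSeq on build GRCm38.p6 and hold the 250 bases before the start of transcription, read 5′ to 3′ on the gene's strand. Capitals mark matches on either strand to CCAAT, to the octamer ATTTGCAT, to the H1 box AAACACA and to TATAAA. All of these genes lie in the histone cluster on chromosome 13. Hist1h1a (chr13:23763418-23763667, plus strand) and Hist1h1b (chr13:21780626-21780875, minus strand) encode linker histones and were used by the rule, as was the H3 gene Hist1h3b (chr13:23752095-23752344, plus strand). Hist1h2ae (chr13:23571221-23571470, minus strand) encodes an H2A and Hist1h4a (chr13:23761250-23761499, minus strand) an H4.
Hist1h1a: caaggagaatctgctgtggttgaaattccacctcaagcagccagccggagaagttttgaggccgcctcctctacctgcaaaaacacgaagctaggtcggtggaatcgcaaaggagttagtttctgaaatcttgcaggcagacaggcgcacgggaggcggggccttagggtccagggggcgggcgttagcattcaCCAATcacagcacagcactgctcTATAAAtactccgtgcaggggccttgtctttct
Hist1h1b: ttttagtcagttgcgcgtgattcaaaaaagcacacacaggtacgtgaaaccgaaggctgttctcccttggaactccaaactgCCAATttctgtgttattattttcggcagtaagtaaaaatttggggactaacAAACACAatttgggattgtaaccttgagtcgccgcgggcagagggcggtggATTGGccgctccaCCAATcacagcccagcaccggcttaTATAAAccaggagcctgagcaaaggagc
Hist1h3b: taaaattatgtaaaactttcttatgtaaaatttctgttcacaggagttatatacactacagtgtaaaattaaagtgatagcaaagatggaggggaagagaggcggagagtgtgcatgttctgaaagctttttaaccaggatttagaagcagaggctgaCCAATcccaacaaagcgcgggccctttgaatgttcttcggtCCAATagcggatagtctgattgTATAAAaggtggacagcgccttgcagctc
Hist1h2ae: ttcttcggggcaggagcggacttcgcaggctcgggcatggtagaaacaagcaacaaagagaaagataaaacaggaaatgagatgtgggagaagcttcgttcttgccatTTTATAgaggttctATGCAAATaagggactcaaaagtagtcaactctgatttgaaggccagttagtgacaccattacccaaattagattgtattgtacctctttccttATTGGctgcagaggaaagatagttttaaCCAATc
Hist1h4a: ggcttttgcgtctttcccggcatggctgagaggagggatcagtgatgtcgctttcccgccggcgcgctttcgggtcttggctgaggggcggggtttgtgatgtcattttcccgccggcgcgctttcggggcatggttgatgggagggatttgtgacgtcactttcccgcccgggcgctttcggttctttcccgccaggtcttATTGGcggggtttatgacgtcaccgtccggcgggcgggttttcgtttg

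Promoter windows were matched for 59 of the 65 replication-dependent histone genes, over 300 bases that run from 250 before to 50 after the start. CCAAT stood in 50 of the 59 (84.7%), against 37.4% of 32851 promoters of all genes. All 6 H1, 16 H2A, 15 H2B and 10 H3 windows held it, and 3 of 12 H4 windows did. The octamer was found in 6 of 16 H2A and 6 of 15 H2B windows and in no H1, H3 or H4 window, so in 20.3% of histone windows against 1.74% of all windows. Windows of some H2A and H2B neighbours on opposite strands overlap, so a single site can count in both classes, as for Hist1h2ae and Hist1h2bg. AAACACA was in 5 of 6 H1 windows, with Hist1h1a the exception, and in 15.3% of histone windows against 7.18% of all. TATAAA was in 57.6% against 13.6%. No 2 motif matches overlapped in a histone window. A match describes letters only and shows no bound factor.

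The stem-loops are shown because they set how these transcripts end. A perfect loop of 16 bases, with a stem of 6 paired bases on each side in capitals, was found in an annotated GENCODE M21 transcript for 44 of the 65 genes. Of the 50 genes with at least 5 CPM (a gene's UMIs per 1000000 UMIs of all cells of a set in a library) in histone-high cells, 34 had one. The commonest form was carried by 19 of these genes, including the rule genes Hist1h2ap and Hist1h3b. Other forms differ in the unpaired bases or in the stem. The 4 genes of the second form all encode H4, and the third form is shared by 1 H2B and 3 H3 genes. Hist1h4a alone had the fourth form shown. The annotated transcripts of Hist1h1a and Hist1h1b end within 100 bases of the stop codon and hold no loop.
Hist1h2ap and 18 others: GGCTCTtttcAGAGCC
Hist1h4c, Hist1h4d, Hist1h4h and Hist4h4: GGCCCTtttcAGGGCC
Hist1h2bb, Hist1h3c, Hist1h3e and Hist1h3f: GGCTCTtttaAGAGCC
Hist1h4a: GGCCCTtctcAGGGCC

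Histone-high cells numbered 416, 300, 279 and 188 in libraries 1 to 4. They made up 3.35% (exact binomial 95% interval 3.04 to 3.68), 2.99% (2.67 to 3.34), 2.89% (2.57 to 3.25) and 2.08% (1.80 to 2.40) of kept cells. Only counting error enters these intervals. The interval of library 4 lies below the others. Of 9098 kept cells with at least 20 rule histone UMIs, 6833 were set aside for more than 5 mitotic UMIs. Among the 2265 left, 359 failed the Procr gate, 314 the Pf4 gate, 241 the Igll1 gate and 221 the Elane gate, and fewer than 60 failed each of the others.

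Cells thinned out well below the histone minimum and kept a similar density on both sides of it. Among lineage-gated cells with at most 5 mitotic UMIs, 7420 had no rule histone UMI, 7546 had 1 to 5 and 344 had 6 to 14. Just outside the limit lay 32 cells with 15 to 19 UMIs, and just inside it 26 cells with 20 to 24. Above these were 149 cells at 25 to 49 UMIs, 495 at 50 to 99, 511 at 100 to 199 and 2 at 200 or more. Since the ranges differ in width, cells per single UMI value compare better: 38.2 at 6 to 14 UMIs, 6.40 at 15 to 19, 5.20 at 20 to 24, 5.96 at 25 to 49, 9.90 at 50 to 99 and 5.11 at 100 to 199. The 26 cells just inside had a median of 14013 UMIs in total and 25 UMIs of Mcm2 to Mcm7 plus Pcna, against 13936.5 and 28 in the 32 cells just outside.

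**Figure D1:**
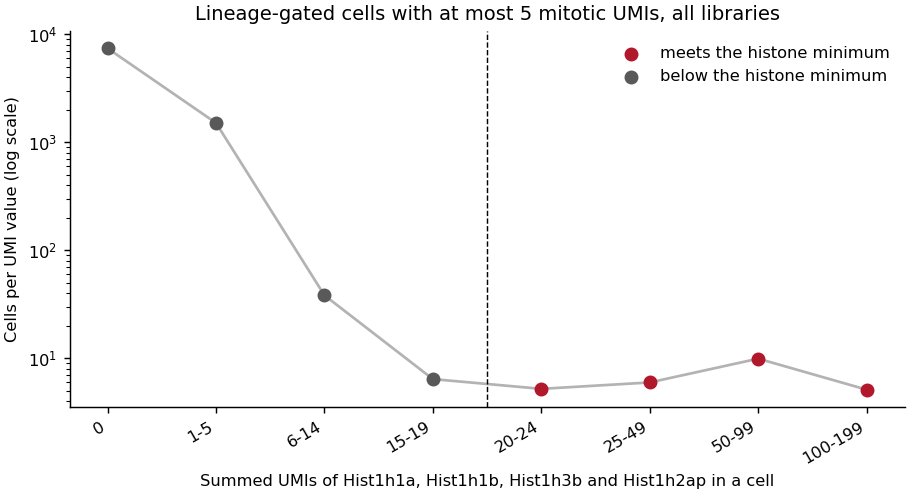
Lineage-gated cells with at most 5 mitotic UMIs per single value of the summed UMIs of the 4 rule histones (log scale), in ranges of unequal width, over all libraries. The dashed line marks the minimum of 20, with 6.40 cells per UMI value just below it and 5.20 just above, and the steep part of the curve lies below 15 UMIs.

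Set against their markers, nearly all of the cells carried progenitor transcripts, and some carried lineage transcripts too. At least 1 UMI of Kit or Cd34, surface proteins of progenitors, was found in 98.6%, 97.7%, 98.6% and 97.9% of histone-high cells in libraries 1 to 4. In mature B-like cells, which should lack both and serve as a gauge of free RNA, the shares were 15.8%, 37.5%, 22.7% and 12.5% of 19, 8, 22 and 24 cells. Median depth was 14683 to 16048 UMIs in histone-high cells and 2048 to 3736.5 in those B-like cells. As a gauge those few cells are imperfect. They held Hist1h2ap at 1277, 396, 90.05 and 311 CPM and Hist1h1b at 563, 1254, 33.8 and 183 CPM, below the histone-high cells, whose values follow further on, and above S-entry cells in 4 libraries for Hist1h2ap and in 3 for Hist1h1b. All 16 stem and multipotent markers had UMIs in histone-high cells and summed to 2575, 2924, 2482 and 2354 CPM.

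Transcripts of mature lineages differed widely in level. Neutrophil markers summed to 9.51, 5.84, 8.75 and 8.06 CPM in libraries 1 to 4, with 8 of 10 genes detected, and macrophage markers to between 12.99 and 23.8 CPM. Plasma cell markers stood at 44.0, 40.5, 44.4 and 195 CPM. Markers of T, NK and innate lymphoid cells summed to 378, 397, 444 and 368 CPM in histone-high cells against 334, 316, 309.6 and 318 CPM in low-cycling cells. Gene by gene the direction was the other: of 6 members compared, 0 were called higher and 4 lower than in low-cycling cells, at a median log2 ratio of -1.67. Dendritic markers summed to 475, 478, 419 and 502 CPM and erythroid markers to 473, 507, 393 and 499 CPM in histone-high cells, so these lists were not near 0. At least 3 UMIs of 25 defining genes of other blood lineages were present in 79 members (6.68%). No barcode occurred in more than 1 library among the members, and 11 member barcodes were also kept in another library.

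Members were set beside 3 other sets of cells that passed the same lineage gates. S-entry cells (2423) had at most 5 mitotic and at most 5 rule histone UMIs with at least 20 UMIs of Mcm2 to Mcm7, the replicative helicase, and Pcna, the polymerase clamp. G2/M cells (2610) had at least 20 mitotic UMIs at any histone level, and 1805 of them also reached 20 rule histone UMIs. Low-cycling cells (7034) had at most 1 rule histone UMI, at most 1 mitotic UMI and at most 5 of Mcm2 to Mcm7 and Pcna. Median UMIs per cell were 14683 to 16048 in histone-high cells, 12839 to 13876.5 in S-entry cells, 16059.5 to 16920 in G2/M cells and 6754.5 to 7454 in low-cycling cells. The same histone-high cells stand in all 3 comparisons. A gene is called higher or lower when its CPM differed at least 1.5-fold in that direction in 4 of 4 libraries, which is a rule of size. Log2 ratios are medians over libraries of log2(CPM + 1), histone-high minus the other set, a scale that understates the ratios of genes with few UMIs.

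Replication-dependent histones took 1.40%, 1.42%, 0.939% and 1.12% of all UMIs in histone-high cells of libraries 1 to 4. In S-entry cells they took 0.0583%, 0.0589%, 0.0452% and 0.0488%, in G2/M cells 0.975%, 0.991%, 0.672% and 0.801%, and in low-cycling cells 0.0802%, 0.0826%, 0.0661% and 0.0592%. Histone-high cells lay above the other 3 sets in each library. These totals include the 4 rule genes, on which the sets were cut, so that order supports nothing. In histone-high cells the rule genes summed to 6953, 6565, 4235 and 5337 CPM, of 13999, 14187.5, 9387 and 11203 CPM for all replication-dependent histones. The 4 genes that chose the cells are given as a description. Hist1h2ap, an H2A gene, was at 3690.2, 2575, 1549.5 and 2693 CPM in histone-high cells against 55.0, 38.5, 31.4 and 42.0 CPM in S-entry cells. Hist1h1b was at 2714, 3336, 2266 and 2172 CPM in histone-high cells against 59.9, 64.5, 47.6 and 42.7 CPM in S-entry cells. Hist1h1a was at 443, 549.7, 377 and 401 CPM in histone-high cells against 23.7, 26.2, 18.8 and 20.0 CPM in S-entry cells, and Hist1h3b at 106, 104, 42.4 and 71.2 against 2.05, 1.90, 0.996 and 1.19 CPM.

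Histone genes that the rule did not use were high with them. Of the 65 genes, 50 reached 5 CPM in histone-high cells, and Hist2h2aa2, Hist1h2bq and Hist1h2ba had no UMI. Hist1h2bq shares its last 90 bases with Hist1h2br, Hist1h2ba with both of these, and Hist2h2aa2 with Hist2h2aa1. UMIs of such genes therefore cannot be assigned with certainty. All 39 histone genes outside the rule that entered the comparison with S-entry cells were called higher, with a median log2 ratio of 3.41. A gene that entered only through its level in the histone-high cells had to differ, so this count supports nothing.

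By class, H2A transcripts summed to 6097, 5036, 3209 and 4684 CPM in histone-high cells of libraries 1 to 4 and H1 transcripts to 4972, 5964, 4113 and 4125 CPM. H4 summed to 1239, 1284, 918 and 1026 CPM, H3 to 949.9, 1069, 605 and 757 CPM, and H2B to 742, 834, 542 and 611 CPM. H2A made up a median of 38.7% of histone UMIs in histone-high cells, 20.9% in S-entry cells, 37.0% in G2/M cells and 15.2% in low-cycling cells. H4 made up 9.10% in histone-high cells, 23.2% in S-entry cells, 12.1% in G2/M cells and 21.9% in low-cycling cells. H1 made up 39.4% in histone-high cells, 38.4% in S-entry, 35.4% in G2/M and 41.6% in low-cycling cells. These are shares of captured UMIs, and capture depends on how each transcript ends. They also include the rule genes: Hist1h1a and Hist1h1b in H1, Hist1h2ap in H2A and Hist1h3b in H3. The rule held those genes high in histone-high cells, and the cuts held them low in S-entry and low-cycling cells. Differences in class sums and shares between the sets therefore restate the cuts in part.

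**Figure D2:**
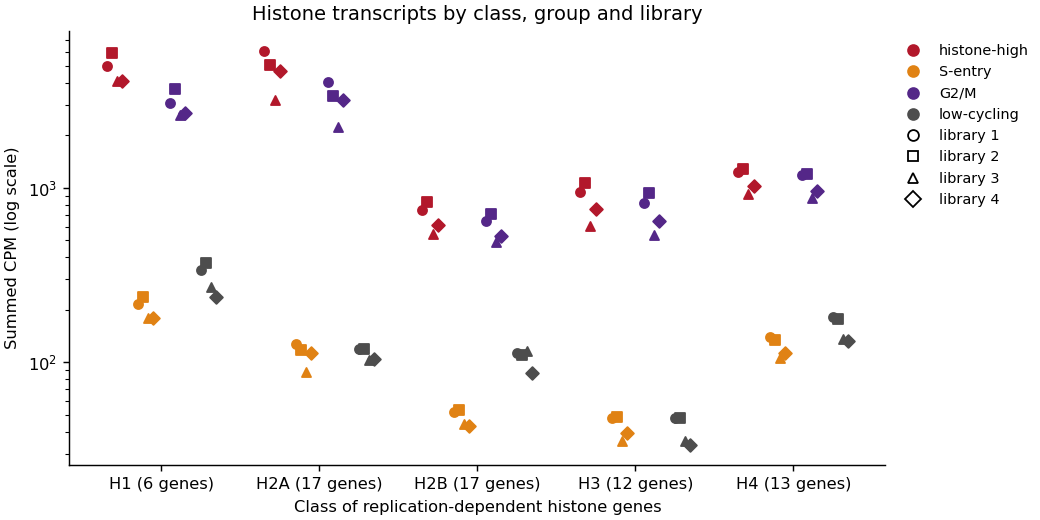
Summed CPM (log scale) of replication-dependent histone genes by class, with 1 point per library (marker shape) and cell set (colour). In all 5 classes the 4 histone-high points lie above the S-entry and low-cycling points, and each lies above the G2/M point of the same library. The gap to G2/M is largest for H1 and H2A (4972 against 3086 CPM for H1 in library 1) and smallest for H4 (1239 against 1181 CPM). The H1, H2A and H3 sums include rule genes and the H2B and H4 sums do not, so the order of these gaps follows in part from the rule. Outside the rule genes, median log2 ratios to G2/M cells were 0.26 for H1, 0.22 for H2A and 0.18 for H4.

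Single genes of each class are given next. Among the linker histones outside the rule, Hist1h1e stood at 1263, 1390.0, 1010.5 and 1056 CPM in histone-high cells, against 90.2, 95.2, 74.1 and 81.6 CPM in S-entry cells, and Hist1h1d at 315, 359, 259 and 278 against 18.0, 18.6, 15.6 and 14.7 CPM. Hist1h2ae, whose protein is identical to that of Hist1h2ap, was at 1434, 1340.1, 929.8 and 1161 CPM in histone-high cells against 25.3, 24.9, 21.3 and 25.6 CPM in S-entry cells. Hist1h2ab, a further gene for that protein, was at 342, 365, 234 and 282 CPM against 5.22, 6.16, 2.55 and 4.27 CPM. The values of the 2 cell sets did not overlap for any of these genes. Both sets were cut on transcripts of other histone genes, so that separation supports nothing. Hist2h2ac, at 334, 407, 271 and 290.03 CPM in histone-high cells, encodes a different H2A. In all, 9 H2A genes encode 1 protein of 130 residues and 13 H4 genes 1 protein of 103 residues.

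Among H3 genes, Hist1h3c was at 323, 395, 214 and 263 CPM in histone-high cells and at 6.25, 8.84, 5.31 and 4.44 CPM in S-entry cells. Hist1h3e was at 196, 227, 143 and 151 CPM in histone-high cells, and Hist1h3f, which shares its last 90 bases with it, at 147, 159, 77.4 and 107 CPM. The H2B genes Hist1h2bj, at 119, 143, 91.2 and 98.0 CPM, and Hist1h2bb, at 103, 101, 58.6 and 76.7 CPM, were below 4 CPM in S-entry cells of each library. Hist1h2bm and Hist2h2bb, also H2B genes, were at 83.5 to 129 CPM and 86.2 to 117 CPM in histone-high cells. Hist1h4d was the H4 gene with the most UMIs, at 754, 781, 557 and 622 CPM in histone-high cells against 80.8, 77.6, 58.9 and 67.6 CPM in S-entry cells. Hist1h4h was at 199.8, 213, 111 and 153 CPM in histone-high cells against 23.7, 20.2, 13.6 and 17.1 CPM in S-entry cells, and Hist1h4i at 147, 139, 155 and 148 CPM in histone-high cells.

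How far a histone gene stood above low-cycling cells varied with its annotated 3′ end, given here as a description. For 18 genes a transcript runs more than 100 bases past the loop. Their median log2 ratio to low-cycling cells was 2.72 (0.64 to 5.35), with a median level of 53.4 CPM in histone-high cells and 11.4 CPM in low-cycling cells. For 16 genes every loop-bearing transcript ends within 100 bases of it, but these include Hist1h2ap and Hist1h3b, which the rule held high in one set and low in the other. Without that pair, the median log2 ratio of the 14 left was 3.72 (2.63 to 6.36), with 72.9 CPM in histone-high cells and 2.11 CPM in low-cycling cells. The ranges overlap. For a further 11 genes outside the rule no loop was found, and the annotated transcript ends within 100 bases of the stop codon. Most of these annotations stop at the stop codon itself and could not hold a loop. Their median log2 ratio to low-cycling cells was 3.64 (2.21 to 5.47). Against S-entry cells the medians lay close together: 3.23 for the 18 genes, 3.30 for the 14 and 3.16 for the 11. Against G2/M cells they were 0.15, 0.26 and 0.32. In 3 H2B genes no loop was found and the end is longer, and these differed among themselves. Hist1h2br had a log2 ratio to low-cycling cells of 3.56, Hist2h2be of 0.52 and Hist1h2bc of -0.70. Hist1h2bc was called lower: 46.4, 43.0, 26.0 and 30.6 CPM in histone-high cells against 73.6, 69.9, 80.3 and 50.5 CPM in low-cycling cells. In S-entry cells Hist1h2bc was at 12.7, 15.3, 13.3 and 9.73 CPM, so the histone-high values lay above those of S-entry cells and below those of low-cycling cells.

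Against S-entry cells, the histone-high cells were richer in transcripts of late cell cycle genes while none of the replisome genes reached the called size. Of 9469 genes compared, 180 (1.90%) were called higher and 21 (0.222%) lower. The G2 and mitosis list had 40 of 43 members called higher and none lower, at a median log2 ratio of 1.46, beside -0.05 for all genes compared. The rule capped 6 mitotic genes in both sets, and those are not in that count. Mki67, the Ki-67 antigen that coats mitotic chromosomes, was at 486, 772, 433 and 541 CPM in histone-high cells against 93.6, 142, 87.6 and 95.1 CPM in S-entry cells. Top2a, a topoisomerase that untangles replicated DNA, was at 781, 902, 731 and 791 CPM against 291, 338, 260.2 and 286 CPM. No histone-high library overlapped the S-entry libraries for either gene. The share of all compared genes separated in this way is not given here, so that separation supports nothing.

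The 10 genes with the largest ratios were all histones, led by Hist1h2ab (log2 5.77) and Hist1h2ae (5.57). Outside the histones, the 10 largest ratios began with spindle and passenger genes. Nusap1, a spindle protein, was at 138, 140.0, 116 and 121 CPM in histone-high cells against 15.6, 16.3, 13.9 and 16.9 CPM in S-entry cells (log2 3.00). Birc5, the chromosomal passenger protein survivin, was at 236, 219.6, 263 and 251 CPM against 29.3, 31.5, 37.2 and 32.3 CPM (log2 2.86). Cdca3 (log2 2.97), the kinesins Kif11 (2.50) and Kif15 (2.05), the DNA glycosylase Neil3 (2.24), the kinetochore protein Nuf2 (2.07) and the spindle factor Tpx2 (2.15) were also called higher. Esco2, which acetylates cohesin during replication, was at 116, 134, 109.8 and 127 CPM in histone-high cells against 20.2, 31.5, 26.2 and 26.5 CPM in S-entry cells. With Esco2, the genes Cdca5 (log2 1.66), Espl1, the separase (1.80), and Sgo1 (1.23) made the 4 of 17 genes of the cohesin list called higher.

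Lower genes were few. Ung, which removes uracil from DNA, was at 38.8, 35.5, 27.8 and 37.1 CPM in histone-high cells against 119.7, 124, 126 and 118 CPM in S-entry cells (log2 -1.71). Wfdc17 (log2 -1.03), a small secreted protein, and Ccnd1 (-0.80), the G1 cyclin D1, were also called lower. The other 7 genes of the lowest 10 were not called: Rangrf (-0.88), Ccl9 (-0.69), Mxd4 (-0.65), Ccnd2 (-0.62), Ier2 (-0.60), Aldoa (-0.59) and Myc (-0.57). Rangrf was called lower once cells with genes of other lineages were left out, with a log2 ratio of -0.90.

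Replication machinery differed little between these sets, of which the S-entry cells had been cut on high Mcm2 to Mcm7 and Pcna. None of 36 replisome genes was called in either direction, at a median log2 ratio of 0.20, and the fork protein Clspn stood at 0.60. Licensing and G1/S genes split 2 higher and 2 lower of 31: the E2F repressor E2f8 (log2 1.07) and E2f2 (0.98) were higher, and Ung and Ccnd1 lower. Of 26 nucleotide synthesis genes, 4 were higher, all of deoxynucleotide or folate supply: Tk1 (1.16), Rrm2 (1.08), Tyms (0.93) and Mthfd2 (0.80). Samhd1, which degrades deoxynucleotides, was lower at 25.4, 30.5, 24.7 and 27.4 CPM in histone-high cells against 49.1, 51.2, 45.5 and 43.4 CPM in S-entry cells. Rrm2, the small subunit of ribonucleotide reductase, was at 119.9, 123, 144 and 129 CPM against 58.2, 58.6, 64.9 and 59.4 CPM.

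Few genes that transcribe, process or carry histones were called. None of 20 histone transcription and processing genes was called against S-entry cells (median log2 -0.01). Slbp, the stem-loop binding protein, was at 221, 253, 244 and 268 CPM in histone-high cells against 177, 197, 184 and 191 CPM in S-entry cells, higher in each library by less than 1.5-fold. Of 26 histone chaperone genes 1 was called higher, Asf1b (log2 0.92), which hands H3 and H4 to the assembly factor CAF-1. Nasp, a chaperone for histone reserves, stood at 0.03.

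Replacement histones were higher more often, in 6 of 11 genes at a median log2 ratio of 0.67. H2afx, the variant phosphorylated at DNA breaks, was at 342, 319, 342 and 348 CPM in histone-high cells against 96.2, 94.7, 104.9 and 103 CPM in S-entry cells. H2afz, the H2A.Z that the SRCAP remodeller deposits, was at 2821, 2827, 3257 and 3141 CPM against 1806, 1759, 2044 and 2051 CPM. H1f0 (log2 1.10), Hist3h2a (1.09), H1fx (0.88) and H3f3b (0.83) completed the group. H2afz was the 1 of 13 SRCAP complex and H2A.Z genes called, and Srcap itself was at 56.9, 79.2, 45.9 and 48.0 CPM in histone-high cells against 55.4, 73.0, 47.6 and 46.3 CPM in S-entry cells (log2 0.04). In repair, Eme1 (1.42), Fancd2 (1.36) and Brip1 (0.85) were the 3 of 43 homologous recombination and Fanconi genes called higher. The cyclin-dependent kinase inhibitor Cdkn2d was the 1 of 18 p53 and inhibitor genes called, higher with log2 1.14. No MYC and ribosome biogenesis gene of 22 and no immediate early or heat shock gene of 12 was called.

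**Figure D3:**
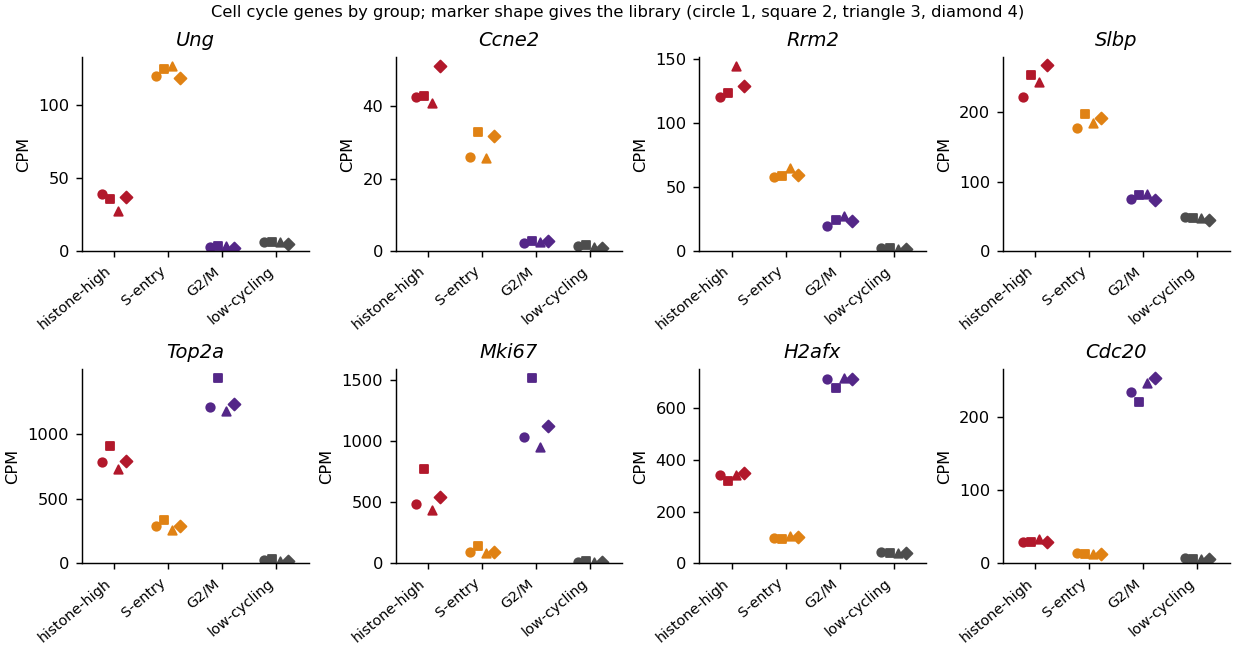
CPM of 8 cell cycle genes in histone-high, S-entry, G2/M and low-cycling cells, 1 point per library. Ung is high in S-entry cells (118 to 126 CPM), Ccne2, Rrm2 and Slbp are highest in histone-high cells, and Top2a, Mki67, H2afx and Cdc20 are highest in G2/M cells.

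Against G2/M cells, the histone-high cells were richer in G1/S and replication transcripts and poorer in mitotic ones. Of 9468 genes compared, 370 (3.91%) were called higher and 432 (4.56%) lower. When log2 ratios were centred on the median gene, whose ratio was -0.10, the split was 498 higher and 319 lower. The G2/M set was cut on mitotic genes and the histone-high set on their absence, so the direction of the mitotic list follows from the cut. That list had 38 of 44 members lower and 1 higher, the condensin II subunit Ncapg2 (log2 0.74). Cdkn3, a phosphatase of cyclin-dependent kinases, was at 8.08, 9.30, 8.75 and 7.73 CPM in histone-high cells against 113, 106, 122 and 134 CPM in G2/M cells. Cdc20, an activator of the anaphase-promoting complex, was at 29.8, 29.6, 33.2 and 29.0 CPM against 234, 221, 247 and 253 CPM. Prr11 (log2 -3.16), Ccnb2 (-2.90), Cdc25b (-2.83), Psrc1 (-2.82), Plk1 (-2.74), Aurka (-2.59), Cenpe (-2.55) and Kif2c (-2.31) were the rest of the 10 lowest.

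Replication genes stood on the other side. Of 37 replisome genes 28 were higher than in G2/M cells and none lower, with a median log2 ratio of 1.11. Pcna was at 453, 547, 541 and 582 CPM in histone-high cells against 113, 132, 129.8 and 116 CPM in G2/M cells. The DNA ligase Lig1 (log2 2.01) and Pclaf (1.93), a Pcna-binding factor, were also among the 10 highest. Pclaf was at 719, 701, 750.3 and 674 CPM against 184, 189.7, 201 and 164 CPM.

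Licensing and G1/S genes were higher in 27 of 37 cases. Ccne2, cyclin E2, was at 42.3, 42.6, 40.9 and 50.9 CPM in histone-high cells against 2.26, 2.82, 2.58 and 2.73 CPM in G2/M cells, and Ccne1 at 20.3, 22.5, 17.5 and 15.5 against 1.20, 1.63, 0.792 and 0.993 CPM. Ung (log2 3.19), E2f1 (2.90), Cdt1 (2.36) and Cdc6 (2.34), the last pair being loaders of the replicative helicase, were higher as well. Dbf4, the activator of the kinase Cdc7, was the 1 member called lower, at 45.8, 43.7, 38.9 and 39.96 CPM in histone-high cells against 114, 132, 114 and 117 CPM in G2/M cells. Of 26 nucleotide synthesis genes 16 were higher, among them Rrm2 (2.39) and Tk1 (1.84).

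Histone supply genes separated by role. The processing factor Slbp was at 221, 253, 244 and 268 CPM in histone-high cells against 74.6, 81.5, 82.1 and 73.1 CPM in G2/M cells (log2 1.59), and Casp8ap2, a factor of the histone locus body, stood at log2 0.88. Those were the 2 of 20 transcription and processing genes called higher. Of 26 chaperone and assembly genes 9 were higher, including Uhrf1 (2.05), Hells (2.02) and Nasp (1.19), and 1 lower, Hjurp (-0.97), which loads the centromeric H3. Of 12 replacement histones 5 were called lower and 1 higher, the lower ones including Hist3h2a (-1.32), H1f0 (-1.22), H1fx (-1.07) and H2afx (-1.06). H2afz, at 0.05, was not called. No SRCAP complex gene of 13 was called.

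The histone transcripts themselves differed less between these sets. Of 46 genes outside the rule, 3 were called higher and 1 lower, with a median log2 ratio of 0.20. Hist1h4a was at 39.6, 45.6, 26.0 and 30.6 CPM in histone-high cells against 12.2, 13.1, 7.53 and 9.56 CPM in G2/M cells (log2 1.65). Hist1h3a was at 58.9, 58.8, 41.1 and 55.4 CPM against 24.7, 24.4, 20.1 and 18.9 CPM (log2 1.23), and Hist1h2ae stood at log2 0.65. Hist1h4d, by contrast, had 754, 781, 557 and 622 CPM in histone-high cells and 745.0, 772, 564 and 619 CPM in G2/M cells. Hist2h2ab, an H2A gene, was the one called lower, at 10.5, 11.0, 6.56 and 5.80 CPM against 18.1, 19.1, 11.8 and 16.3 CPM. The rule gene Hist1h1a had a log2 ratio of 1.28 and Hist1h2ap of 0.67.

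Against low-cycling cells, whose UMI counts per cell were lower, 1175 of 9752 genes (12.0%) were called higher and 1020 (10.5%) lower. That set was cut on low histone, mitotic and helicase transcripts, and the direction of the lists next named follows from the cut. All 36 replisome genes and all 43 G2 and mitosis genes compared were higher, at median log2 ratios of 2.70 and 3.67. Pclaf was at 719, 701, 750.3 and 674 CPM in histone-high cells against 6.17, 5.18, 4.17 and 4.07 CPM in low-cycling cells. Others among the 10 highest outside the histones were Esco2 (6.08), Birc5 (5.98), Tk1 (5.91), the kinetochore gene Spc24 (5.88), the mitotic kinase gene Pbk (5.65), Clspn (5.44) and Rrm2 (5.36). Licensing and G1/S genes were higher in 22 of 30 cases, nucleotide synthesis in 20 of 26, chaperones in 21 of 26 and recombination and Fanconi genes in 30 of 43. MYC and ribosome biogenesis genes were higher in 12 of 22 cases, at a smaller median log2 ratio of 0.70.

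The 10 lowest genes were Igkc, Jchain, Iglc1, Iglc2, Iglc3, Iglv1, Ighg2b, Igha and Ighm, which encode antibody chains or the chain that joins them, and Prg2, an eosinophil granule gene. Igkc was at 60.2, 46.1, 33.5 and 1761 CPM in histone-high cells against 27176, 29692, 38726.5 and 70273 CPM in low-cycling cells. B lineage markers summed to 44.0, 36.3, 53.6 and 72.8 CPM in histone-high cells and to 646, 652, 3841 and 6204 CPM in low-cycling cells, and 819 low-cycling cells (11.6%) held at least 3 UMIs of other lineages' genes. Without such cells on either side, 1016 genes were called higher and 1299 lower. The 10 lowest were then Ltb, Wfdc17, Mycn, Pdzk1ip1, Nupr1, Hacd4, Ccl4, Samhd1, Txnip and Mllt3. Ltb, a lymphotoxin subunit, was at 31.0, 33.1, 26.1 and 17.0 CPM in histone-high cells against 203, 215, 169.5 and 152 CPM in low-cycling cells. Txnip, an inhibitor of glucose uptake, was at 121, 143, 103 and 106 CPM against 484, 529, 365 and 441 CPM.

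Genes of cell cycle exit and of stem cells lay lower in histone-high cells. Of 17 p53 target and inhibitor genes 7 were lower and 1 higher, the inhibitor Cdkn1a (log2 0.95). Trp53inp1 (-2.97), Btg2 (-1.97) and Cdkn1b (-1.03), which encodes p27, were among the lower ones. Immediate early and heat shock genes were lower in 9 of 13 cases, for example Jun (-1.62), and Hsp90aa1 (1.22) was the 1 called higher. Stem cell markers summed to 270, 337, 231 and 313 CPM in histone-high cells against 626, 805, 618 and 728 CPM in low-cycling cells, with Procr held at 0 by the gate. Hlf, a stem cell transcription factor, was at 164, 194, 136 and 172 CPM against 360.0, 498, 351 and 378 CPM, and Kit at 124, 159, 121 and 125 against 217, 282, 195 and 202 CPM. Cd34 was at 337, 389.8, 352 and 295 CPM in histone-high cells and 314, 359, 325 and 237 CPM in low-cycling cells.

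**Figure D4:**
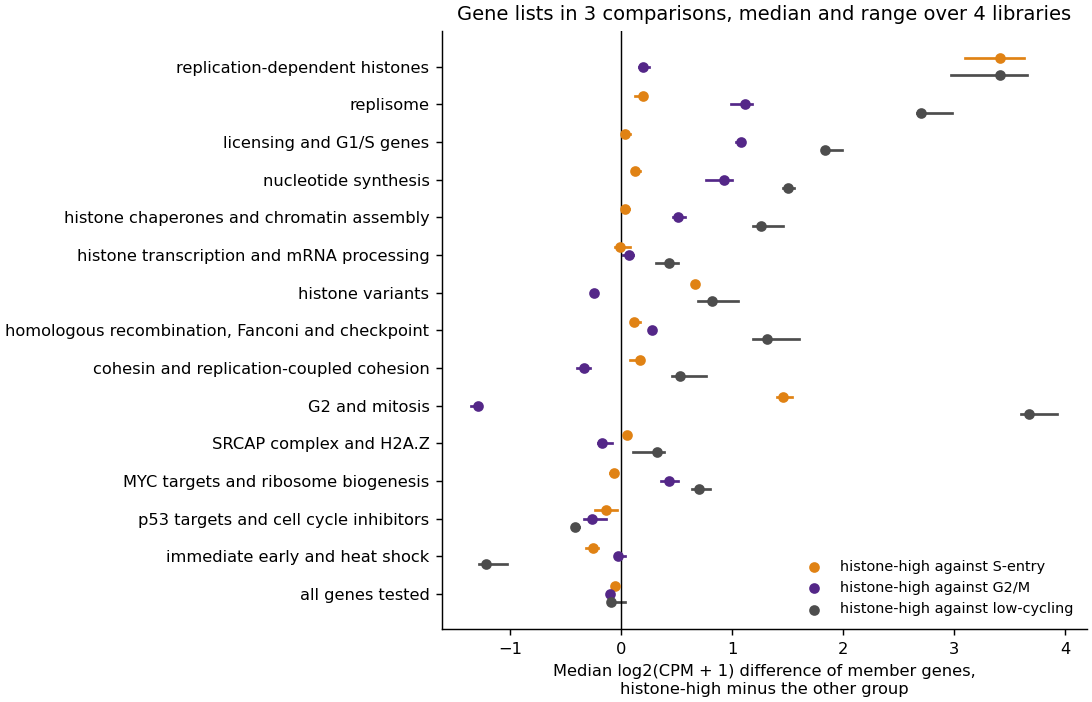
Median log2 ratio over the compared members of 14 gene lists and over all genes, histone-high minus S-entry, G2/M or low-cycling cells. Points are medians over 4 libraries and bars their range. The G2 and mitosis list lies at 1.46 against S-entry and -1.29 against G2/M cells, whereas the replisome list lies at 0.20 and 1.11.

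Within the histone-high cells, those with the larger histone share also held more late cell cycle transcript. Members of each library were put in 4 bins of equal size by the share of rule histones among their UMIs. G2 and mitosis genes summed to 3883, 4294, 3478 and 3632 CPM in the lowest bin of libraries 1 to 4, and to 5489.8, 6207, 5328 and 5799 CPM in the highest. Top2a stood at 633, 698, 577 and 560.2 CPM in the lowest bin and at 929, 1048, 916 and 1039 CPM in the highest. H2afx stood at 286, 254, 289 and 260.3 CPM in the lowest bin and 424, 382, 396 and 473 CPM in the highest. For these 3 measures the highest bin lay above the lowest in 4 of 4 libraries, and the share of all genes that did so is not given here. Replisome genes were level, at 4086 to 4504 CPM in the lowest bin and 4234 to 4511 CPM in the highest.

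Slbp was at 209, 227, 221 and 249 CPM in the lowest bin of libraries 1 to 4 and at 235, 284, 302 and 308 CPM in the highest. Ccne1 was at 29.1, 34.2, 17.5 and 23.3 CPM in the lowest bin and at 20.1, 9.63, 21.1 and 8.55 CPM in the highest, with library 3 against the order of the others. Median depth was 15507.5 to 17157 UMIs in the lowest bin and 13228 to 14782 in the highest, so depth moved with the bin. Its part in these differences was not tested.

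**Figure D5:**
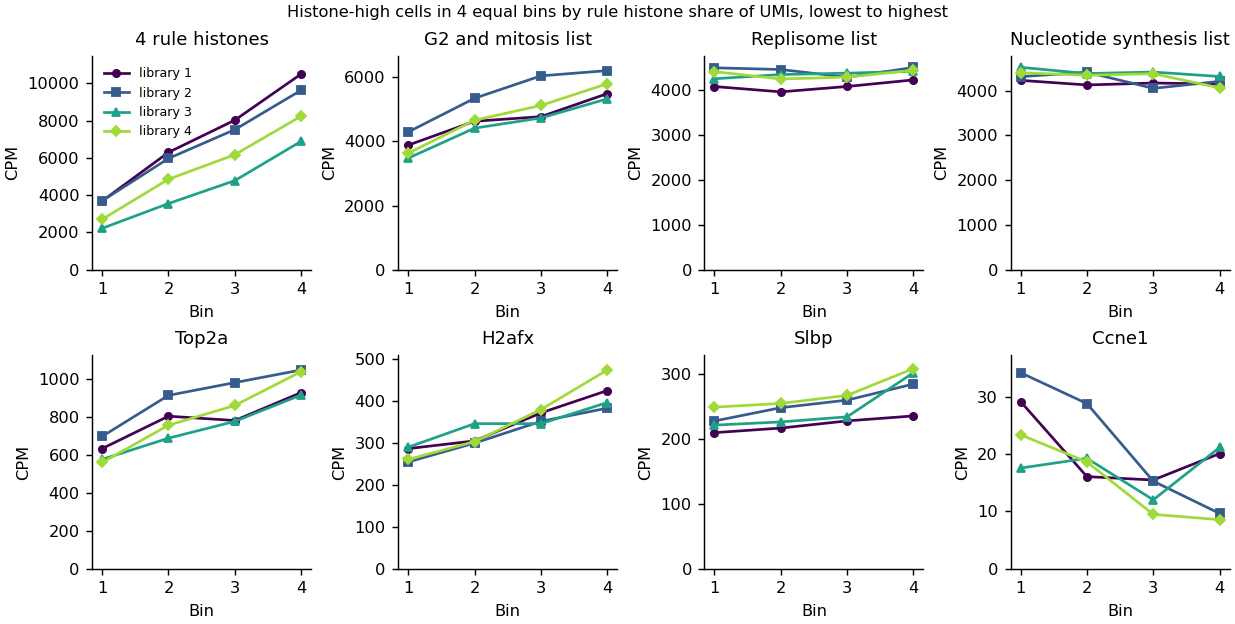
CPM of summed gene lists and single genes in histone-high cells split into 4 bins by the rule histones' share of UMIs, with 1 line per library. Lines for G2 and mitosis, Top2a and H2afx end higher than they begin in each library, lines for the replisome and nucleotide synthesis lists are nearly flat, and the lines for Ccne1 end lower in 3 of 4 libraries.

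Ordering the members by helicase transcripts gave another axis. In 3 bins by the share of Mcm2 to Mcm7 and Pcna among UMIs, Ccne2 stood at 29.6, 27.0, 31.6 and 29.0 CPM in the lowest bin of libraries 1 to 4 and at 58.0, 54.8, 41.9 and 72.4 CPM in the highest. Ccne1 stood at 12.2, 17.1, 10.1 and 12.6 CPM in the lowest bin and 27.7, 27.1, 24.3 and 22.1 CPM in the highest. Clspn was at 138, 176, 142 and 148 CPM in the lowest bin and 194, 239, 189 and 231 CPM in the highest, and Rrm2 at 96.9, 83.7, 111 and 105 against 132, 149, 168 and 135 CPM. All 4 genes, picked from G1/S and replication genes, were higher in the highest bin of each library. The share of all genes that rose in this way is not given here, so that count supports nothing. Hist1h2ap went the other way, at 3948, 2874, 1639 and 3042 CPM in the lowest bin and 3482, 2252, 1397 and 2407 CPM in the highest.

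The members were not uniform in lineage priming or in stem cell transcripts. At least 10 UMIs of Mpo and Ctsg, granule genes of granulocyte and monocyte progenitors, were held by 20.4%, 19.0%, 27.2% and 19.1% of histone-high cells, against 19.5%, 13.4%, 22.3% and 11.8% of S-entry cells and 19.7%, 16.8%, 21.2% and 18.6% of G2/M cells. At least 5 UMIs of Dntt, the terminal transferase of early lymphoid cells, were held by 17.3%, 17.7%, 21.9% and 23.9% of histone-high cells, against 19.1%, 17.7%, 21.2% and 18.3% of S-entry cells and 24.5%, 27.7%, 30.7% and 31.9% of G2/M cells. At least 5 UMIs of Hlf were held by 18.8%, 27.0%, 15.8% and 25.5% of histone-high cells, against 17.8%, 26.9%, 17.6% and 19.3% of S-entry cells and 34.5%, 47.1%, 35.0% and 41.7% of G2/M cells. In mature B-like cells the Mpo and Ctsg share was 0 in 3 libraries and 4.17% in library 4, and the Hlf share was 4.17% to 12.5%. Mature B-like cells were taken only without Dntt, so their Dntt share was 0 by definition and gauges nothing. Their median depth was 2048 to 3736.5 UMIs, far below that of histone-high cells. None of the 3 programs was reached by 51.0%, 43.0%, 42.7% and 42.0% of histone-high cells. Hlf is a stem cell gene, so its share is no sign of commitment. Given the Mpo and Ctsg and the Dntt shares, the word uncommitted holds for this set only as far as the gates define it. Shares at a fixed UMI number read depth too, and median UMIs were 14683 to 16048 in histone-high cells, 12839 to 13876.5 in S-entry cells and 16059.5 to 16920 in G2/M cells. For all 3 programs the histone-high and S-entry ranges overlapped.

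Histone levels are given for each of these subsets. All replication-dependent histones summed to 11899, 12609.6, 8402 and 10566 CPM in members with Mpo and Ctsg, to 13722, 13175, 9221 and 11009 CPM in those with Dntt, and to 13733, 15023, 9705 and 11735 CPM in those with Hlf. Members with none of the 3 had 14881, 14714, 10074 and 11512 CPM. The Mpo and Ctsg cells had the lowest value in each library, and their median depth was 17594 to 19805 UMIs, against 13719 to 15231 UMIs in members with none.

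Between libraries, most genes of the histone-high cells lay close together. Of 2654 genes at 50 CPM or more, 8 (0.301%) differed at least 2-fold between the highest and lowest library. The genes with the largest ratios included Igkc, Ly6d, Ighm, Hist1h3b, Hist1h2ap, Cd52, Fcer1g, Hist1h3f and Hist1h4h. In library 4, 1 member held 5250 of the 5464 Igkc UMIs. Without cells holding genes of other lineages, Igkc was at 61.3, 47.2, 32.9 and 69.8 CPM in libraries 1 to 4, and Ighm at 116, 121, 124 and 139.9 CPM. Ly6d, a marker of early lymphoid cells, was at 16.2, 59.1, 41.1 and 117 CPM with all members and at 14.9, 58.3, 22.2 and 49.9 CPM without those cells. Cd52, a lymphocyte surface protein, was at 223, 201, 369.6 and 423 CPM, and Fcer1g, a receptor chain of myeloid cells, at 55.6, 63.6, 73.3 and 35.1 CPM.

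Many histone genes shared the library in which they were lowest or highest. Of the 50 histone genes at 5 CPM or more, 41 were lowest in library 3 and 35 highest in library 2. The same counts over all genes are not given here for any set of cells, so the counts in this paragraph show nothing particular to histones. Hist1h3b ranged 2.47-fold and Hist1h2ap 2.38-fold, each highest in library 1 and lowest in library 3. In G2/M cells 39 of 49 histone genes were lowest in library 3, with a summed histone level of 9753, 9914, 6719 and 8014 CPM. In S-entry cells 11 of 19 were lowest in library 3, and in low-cycling cells 9 of 20 in library 3 and 8 in library 4, where the low-cycling sum was lowest, at 592 against 661 CPM in library 3. The median rule histone sum per member was 109, 100.5, 66 and 87.5 UMIs, while median depth was highest in library 3, at 16048 UMIs. Genotype, mouse and library preparation cannot be told apart in these values.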

How the data were processed

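Single-cell 3′ RNA sequencing (10x Genomics v3.1 chemistry) was done on 4 samples. An aggregated matrix of 32285 features and 44151 barcodes holds the UMI counts as the authors deposited them, in whole numbers and without scaling per cell. Per the file headers, Cell Ranger 6.1.2 wrote it, and the build was mm10, per the submitters' processing notes. Whether depth was evened at aggregation is not given in the sources used here. Suffixes of the barcodes separate 4 libraries, but nothing ties them to the samples, so the planned edgeR comparison of mutant with wild type, DESeq2 and the replicate block were not run. Kept libraries held 111226947 to 142792456 UMIs.

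The members, comparison sets and gene lists were chosen with earlier results of these data known. UMIs were summed per library and set, scaled to CPM, and compared within each library as log2(CPM + 1). A gene entered a comparison when the mean of both sides reached 5 CPM. Named genes were the 10 highest and 10 lowest of each comparison, by the library whose log2 ratio lay nearest to 0, among genes whose higher side had at least 50 CPM, without ribosomal protein, mitochondrial or unnamed genes and without genes the cuts used (where histones filled the highest places, also the 10 highest other genes), plus examples from each list, Srcap, the rule genes, the 3 highest histones of each class and the 10 most variable genes between libraries. A few of the genes this rule names are not reported here. The step that calls genes was tested on simulated data. Scrublet, run in Scanpy 1.11.5 at an expected rate of 8%, marked 0, 0, 1 and 0 doublets, so it did not work here. Doublets were not removed, and the 8% highest scores per library were left out as an alternative. Among kept cells, 178 barcodes occur in more than 1 library. Mature B-like cells (at least 2 UMIs each of Ms4a1 and Ighd, no Dntt) gauged free RNA. Exact Clopper-Pearson 95% intervals cover counting error only. The software was Python 3.11.15, NumPy 2.4.6, SciPy 1.17.1, pandas 2.3.3 and Matplotlib 3.10.9. Histone transcripts came from GENCODE M21 and promoters from RefSeq.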

Additional observations from a re-analysis of the deposited data

How the results depend on the processing

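No paired analysis was possible because no label ties a barcode suffix to a sample, so replicate numbers cannot be given to libraries. The median share of kept cells, 2.94%, was 1.03% with at most 2 mitotic UMIs and 5.06% with at most 10. With genes of at least 20 CPM, fewer genes entered and 124 were called against S-entry cells, 532 against G2/M cells and 1295 against low-cycling cells, beside 201, 802 and 2195 at 5 CPM. Leaving out 1 library in turn, which asks for 3 libraries in place of 4, gave 225 to 234, 894 to 921 and 2339 to 2437 calls. The other alternatives kept the counts within 1.5 times: histone minimums of 15 and 30 UMIs or 0.2% of UMIs, a 5% mitochondrial limit, a higher minimum of genes per cell, removal of high doublet scores, thinning to 5000 UMIs, a pseudocount of 5 CPM, no gene filter, centring, totals without histones, and, added after the data were seen, removal of cells with genes of other lineages. Of the list medians recomputed under these settings, 684 moved by less and 114 by more than the spread between libraries. Sign changes were met only in medians within 0.1 of 0. Depth limits single histone genes of few UMIs, and poly(T) capture limits all levels of transcripts that lack a poly(A) tail.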
